A study of Arabidopsis thaliana with 156 samples.

Results

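In day 6 shoot apices of Arabidopsis thaliana plants carrying a miR156 target mimic, 71 of the 19283 probe sets that are not array controls stood above apices of the neighbouring ages. They were chosen by the values of the 3 FRI;FLC;35S::miR156mimic arrays of day 6 and of the FRI;FLC arrays of days 4, 6 and 9, so those values are given below as a description, with no test. The mimic mean had to exceed the means of day 4 and of day 9, and each of the 2 other arrays of day 6, by at least 1.5 on the log2 scale. Of the 71 members, 29 matched 1 gene in the naming table, and these were 29 different genes, 12 of them with a symbol other than the locus tag. The other 42 are not listed in that table and are given by probe set ID. They are called probe sets without a gene below, which means only that the table does not list them. The rule turned round, for values lower in the mimic, finds 127 probe sets.

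In Arabidopsis, miR156 is abundant in young shoots and declines as the shoot ages. It restrains the SPL transcription factors, which bring on adult leaf traits and prepare the shoot to flower, so the decline of miR156 times the passage to the adult phase. A target mimic is a transcript that pairs with the microRNA without being cleaved and so keeps it from its targets. FRI raises FLC, a repressor of floral integrator genes, and flc-3 is a loss-of-function allele of it.

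All plants carried FRI, brought into Col-0 from Sf-2. Apices with their primordia below 1 mm came from the mimic line at day 6 (3 arrays), from FRI;flc-3 at days 4, 9 and 11 (3 arrays each) and day 6 (1 array), and from FRI;FLC at days 4, 9, 11, 14 and 21 (3 each) and day 6 (2). The mimic was driven by 35S, a promoter active in most tissues, so its action was not limited to the apex, and the number of transgenic lines is not given in the sources used here. Primordia of 1 mm and fully expanded leaves came from both of these genotypes without the mimic, at leaf positions 1/2, 3, 5, 7, 9 and 11, with 3 arrays per group. Plant age was counted in days in the growth chamber, under 16 hours of light. Primordia of those 6 positions were taken at days 6, 9, 11, 14, 16 and 18 in both genotypes, so position and plant age cannot be told apart. Expanded leaves were taken at day 14 for leaves 1/2 and up to day 34 for leaf 11. In experiment 1, leaves 3, 5, 7 and 9 were taken at days 21, 24, 26 and 30 in FRI;flc-3 and at days 23, 26, 29 and 33 in FRI;FLC, and in experiment 2 both genotypes were taken at days 23, 26 and 29 for leaves 3, 5 and 7, and leaf 9 at day 32 in FRI;flc-3 and day 33 in FRI;FLC. Leaves 3, 5 and 7 were also sampled at a later stage, when expansion was over, at day 32 in FRI;flc-3 and day 33 in FRI;FLC. Expanded leaves were collected in experiments 1 and 2, primordia in experiment 1 and apices in experiment 2. Expanded leaf 11 was a cauline leaf in FRI;flc-3, taken at days 30 and 32 in experiments 1 and 2, and a rosette leaf in FRI;FLC, taken at days 34 and 33. Each array held RNA from a pool, of 24 to 120 apices, 30 or 60 primordia, or 9 or 18 leaves, so p-values measure the spread between pools. In such pools, more cells of a type and more RNA per cell cannot be told apart. The deposited values are log2 signals, with array medians between 6.40 and 6.92.

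Of the genes that mark the tissue, 3 of 22 listed meristem genes and 2 of 27 listed root genes were measured. Here and below, a gene counts as measured if the naming table ties a probe set to it alone. Probe sets that the table does not list may belong to further listed genes. CLV3, which encodes a peptide made in the meristem centre, averaged 2.85 in mimic apices, against 4.35, 4.65 and 2.61 in FRI;FLC apices of days 4, 6 and 9. LAS and UFO, the other meristem genes measured, averaged 3.05 and 2.81 in mimic apices, against 2.49 to 3.84 and 2.32 to 3.25 over those ages. PYK10, a beta-glucosidase of roots and young seedlings, averaged 9.20 in mimic apices, against 11.7, 11.8 and 11.7 at those ages, while the root gene LBD16 was at 2.12 in mimic apices and between 1.87 and 2.07 in the others. The part of these tissue differences in the members' values was not tested. The 2 FRI;FLC arrays of day 6 correlated at 0.954 over all probe sets, below every other apex group, whose lowest correlation was 0.978.

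A pair of apex arrays stood apart from their groups. Mimic replicate 2 had 39 probe sets at least 3 log2 units above both other mimic arrays, and FRI;FLC day 14 replicate 3 had 30 above both other arrays of its group. All 30 were among the 39 (100% of the day 14 set and 76.9% of the mimic set), and 16 of the 30 were members. On the 25 other apex arrays in groups of 3, the same count was at most 2. These 16 members therefore entered through 1 of the 3 mimic arrays.

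LCR67, which encodes a small cysteine-rich protein of the defensin type, read 1.73, 12.34 and 2.47 on mimic replicates 1, 2 and 3. In FRI;FLC apices of day 14 it read 1.38, 1.67 and 11.58, and its highest value on any primordium or leaf array was 3.29. PAP85, a storage protein of the vicilin type in seeds, read 1.84, 9.77 and 2.05 on the mimic arrays. M17, a late embryogenesis abundant protein, read 1.94, 9.28 and 1.88 there, and reached 7.75 on day 14 replicate 3. The 3 genes thus shared the same pair of high arrays and were low on the other apex arrays, apart from M17 at 4.11 on one FRI;flc-3 array of day 4. AT1G68250, AT5G45690, AT5G07330, AT1G14950 and AT3G56350 had the same pattern, with 7.40 to 11.28 on mimic replicate 2, as had 8 probe sets without a gene. Among these 8, 247095_at was an exception in the apices, with 8.97 on replicate 1 of FRI;flc-3 at day 4, the array on which M17 read 4.11. Of the 8, 247095_at, 252515_at, 255048_at and 247866_at were also high elsewhere, with highest leaf or primordium values of 12.77, 9.31, 9.33 and 8.85.

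Of 24 listed seed genes 1 was measured, LEA4-5, a late embryogenesis abundant gene that is no member. LEA4-5 read 2.54, 8.29 and 2.51 on the mimic arrays and 2.54, 2.76 and 7.45 at day 14 of FRI;FLC. It was also high on replicate 1 of FRI;flc-3 at day 4, at 7.28, the array on which 247095_at read 8.97. That array is also one of the day 4 arrays in the FRI;flc-3 age comparison below. ICL, an isocitrate lyase used in seedlings to mobilise seed oil, read 2.17, 8.00 and 2.09 on the mimic arrays and 6.43 on day 14 replicate 3. On replicate 1 of FRI;flc-3 at day 4 it read 4.51. ICL was chosen after its values were seen. The seed gene and the 16 members were high on the same pair of arrays, and what those pools contained was not tested.

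In the other 55 members, each of the 3 mimic arrays lay above all 8 FRI;FLC arrays of days 4, 6 and 9, and these carry the rest of the account. Their mimic means ran from 4.21 to 11.93, with a median of 6.99, and the median range over the 3 mimic arrays was 0.49. Their medians in FRI;FLC were 3.3, 3.65 and 4.05 at days 4, 6 and 9. With mimic replicate 2 left out, the rule found 60 probe sets, 54 of them among the 71. The plot of members on the apex arrays shows both sets.

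**Figure D1:**
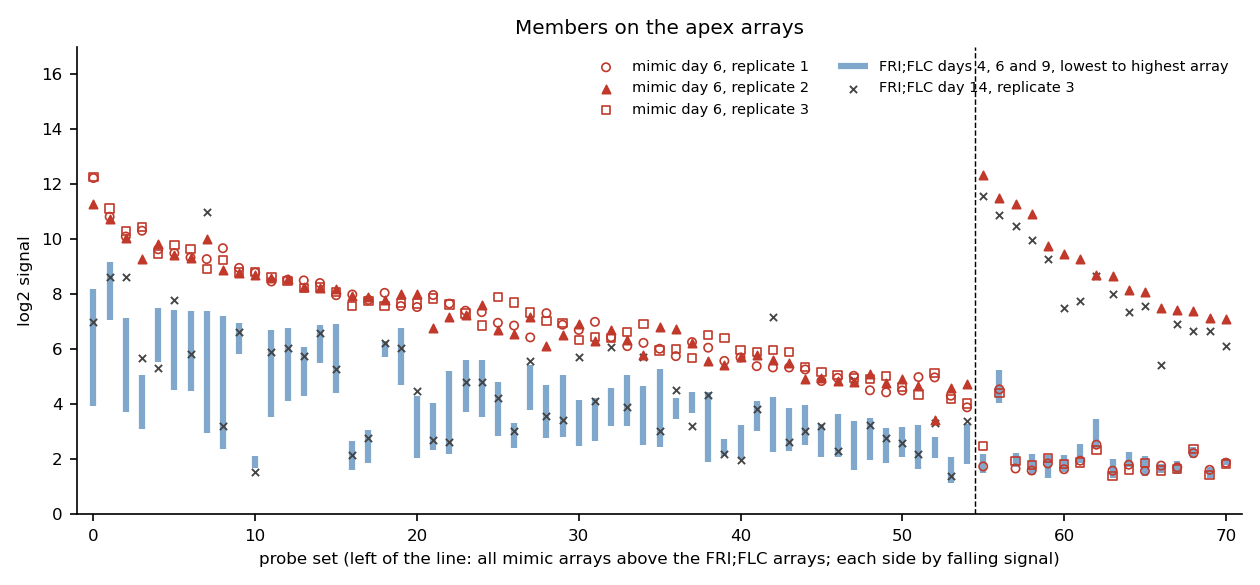
Log2 signal (y axis) of the 71 members (x axis, ordered by signal) on the 3 mimic arrays of day 6 (red symbols), with the range over the FRI;FLC arrays of days 4, 6 and 9 (blue bars) and replicate 3 of day 14 of the same genotype (crosses). Left of the dashed line are the 55 members with every mimic array above the bars. Right of it are the 16 that were high on mimic replicate 2 and on day 14 replicate 3.

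The smallest of a member's differences from the 4 comparison values ran from 1.56 to 6.63, with a median of 2.12. It was at least 2 in 38 members, at least 3 in 11 and at least 4 in 5. Just inside the threshold were AT5G45310 at 1.57, 247095_at at 1.57 and 255503_at at 1.56. Just outside were 257835_at at 1.496, AT4G22470 at 1.49 and 260904_at at 1.49. The members nearest the threshold thus differ from their neighbours outside it by a few hundredths. The comparison that came closest was day 4 in 20 members, day 9 in 20, day 6 replicate 1 in 20 and day 6 replicate 2 in 11.

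The FRI;flc-3 array of day 6 was not used by the rule. On it, 47 of the 55 members read at least 1.5 below the mimic mean, and the least difference was 0.22. The members were chosen for a high mimic mean, so a lower reading on another array is partly built in. With 1 array this has no test.

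The member with the largest smallest difference, 246380_at, read 8.79, 8.69 and 8.80 on the mimic arrays, at most 2.23 on the other 27 apex arrays and at most 2.64 on any array of leaves. In primordia of FRI;flc-3 it read 3.64, 3.16 and 3.91 at leaf 9 and 5.16, 5.27 and 4.74 at leaf 11, while its highest FRI;FLC primordium value was 1.99. Its rise between leaves 1/2 and leaf 9 of those primordia was 1.84 (SE 0.14, adjusted p = 2.58e-13). Another unlisted probe set, 266139_at, read 7.99, 7.92 and 7.59 in the mimic, and between 1.61 and 3.09 on every other apex array. Both were far above all other apex arrays in each mimic pool.

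Among regulators of transcription, AT4G34400, a gene for a protein with a B3 DNA-binding domain, was highest in the mimic of all 53 groups. It read 10.31, 9.30 and 10.45 on the mimic arrays. In FRI;FLC apices it read 3.73, 3.24 and 3.17 at day 4, 3.09 and 4.82 at day 6, 5.07, 4.42 and 4.68 at day 9, 5.29, 5.32 and 5.92 at day 11, 6.61, 6.99 and 5.67 at day 14, and 7.92, 8.14 and 8.05 at day 21. Days 9, 11 and 21 did not overlap with each other, day 14 overlapped with day 11 through its replicate 3, and all were below the mimic. In FRI;flc-3 apices it averaged 4.01 at day 4, 7.19 at day 9 and 9.44 at day 11.

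FD, a bZIP factor that acts with the florigen FT at the apex, read 4.84, 4.94 and 5.16 in the mimic, against 2.46 and 2.2 in FRI;FLC apices of that day. At day 11 it read 4.62, 4.91 and 5.63 in FRI;flc-3 and 3.36, 3.18 and 3.45 in FRI;FLC. The mimic values thus lay within the span of the FRI;flc-3 values of day 11. AGL42, a MADS-box factor related to SOC1 that takes part in floral transition, read 4.97, 3.41 and 5.13 in the mimic, against 2.37 and 2.04 at day 6. Mimic replicate 2 was the lowest of the 3 for AGL42 and AT4G34400.

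Several members encode enzymes of the plant surface and of secondary metabolism. WSD1, a wax ester synthase of the stem and leaf surface, read 7.97, 6.78 and 7.85 in the mimic, against 4.05, 3.19 and 2.73 at day 4, 2.31 and 2.41 at day 6 and 3.37, 3.25 and 3.65 at day 9. CYP71B22, a cytochrome P450, read 7.79, 7.92 and 7.77 in the mimic and at most 3.05 on the FRI;FLC arrays of those days. UGT84A3, a glucosyltransferase that acts on hydroxycinnamates, read 4.96, 4.84 and 5.07 in the mimic, and 2.06 and 3.22 at day 6. Neither WSD1 nor CYP71B22 reached its mimic level in another apex group, the highest being FRI;flc-3 at day 11 with means of 4.43 for WSD1 and 4.02 for CYP71B22.

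QQS, a small protein known for its effect on the share of carbon that goes to starch, read 9.68, 8.87 and 9.25 in the mimic, and 7.21 and 3.22 on the FRI;FLC arrays of day 6. Those 2 arrays were farther apart than the difference that made QQS a member. CHX20, a cation/H+ exchanger known from guard cells, read 7.40, 7.23 and 7.30 in the mimic, against 4.43 and 3.71 at day 6. ATSBT5.2, a subtilisin-like protease, read 6.06, 5.57 and 6.51 in the mimic and 4.09 and 4.15 at day 6.

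A group of 3 members lay close together on chromosome 2. CHI, annotated as a chitinase, is separated from AT2G43590 by 1 gene, and AT2G43590 and AT2G43600 are adjacent. AT2G43600 was chosen after its values were seen. In the mimic CHI read 6.23, 5.79 and 6.91, AT2G43590 read 7.00, 6.29 and 6.45, and AT2G43600 read 7.57, 8.01 and 7.69. On the FRI;FLC arrays of day 6, CHI read 4.51 and 3.54, AT2G43590 read 4.24 and 2.78, and AT2G43600 read 4.7 and 5.1. Probe sets of neighbouring genes of similar sequence can share signal, and how far these do was not tested. Their other values are given below.

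Other members are given by locus alone. AT3G14395 read 6.02, 6.80 and 5.95 in the mimic, against 3.03 and 2.50 at day 6 and 5.27, 3.64 and 3.48 at day 4 in FRI;FLC. AT3G06160 read 6.89, 6.52 and 6.96 in the mimic, against 4.33 and 4.96 at day 6. AT3G27980 read 4.99, 4.67 and 4.36 in the mimic, against 2.51 and 2.69 at day 6 and 1.64, 3.25 and 2.14 at day 4. One day 4 array of AT3G14395 came within 1 log2 unit of mimic replicates 1 and 3. AT2G37900 read 6.70, 6.92 and 6.34 in the mimic, against 3.66 and 2.77 at day 6 and 4.17, 4.16 and 3.81 at day 9. AT2G39210 read 6.43, 7.19 and 7.34 in the mimic, against 4.36 and 3.78 at day 6. AT3G50170 read 4.5, 4.91 and 4.62 in the mimic, against 2.66 and 2.08. All of these are among the members with each mimic array above the FRI;FLC arrays of days 4, 6 and 9. That the mimic did not overlap with the arrays given follows from that split and is no separate result. Just inside the threshold, AT5G45310 read 3.88, 4.73 and 4.03 in the mimic, against 2.01 and 2.15 at day 6 and 3.28, 2.83 and 1.82 at day 4.

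Of 28 listed genes of the age pathway, 3 were measured, namely SMZ, SNZ and AGO7, and none of these was a member. The other listed genes could not be looked up, and the 42 members outside the naming table could be matched to no list. Whether age pathway genes are among those 42 was not tested. FD and AGL42 were the members among the measured genes of floral transition and flower identity, which were 6 of 32 listed. WSD1 was one of the 2 measured wax genes, CYP71B22 one of 17 measured cytochromes P450 and UGT84A3 one of 43 measured UDP-glycosyltransferases. Members outside the naming table may add to each of these counts.

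Whether the members also rose with age was tested in apices that the rule did not use. The rule favours probe sets that are low in young FRI;FLC apices. The members' medians there were 3.03, 2.94 and 3.42 at days 4, 6 and 9, while the median of all values was 6.72. Probe sets so low have little room to fall. A small count of members lower may thus be partly built in, here and below, and how far was not tested. In FRI;FLC, 25 of the 71 members were higher at day 21 than at day 11, beside 18.6% of all 19324 probe sets, and 1 was lower, beside 19.3%. The median difference was 0.39 over the members and 0.62 over the 55. Calls here and below are at an adjusted p under 0.05 in limma, with Benjamini-Hochberg adjustment over the whole array, and all 25 were among the 55. In the apex fits the pair of arrays that stood apart widened the spread of the 16 other members, which could hardly be called. Over all probe sets the median difference lay between -0.014 and 0.020 in each of the 12 comparisons made. Without mimic replicate 2 and day 14 replicate 3 the counts were 24 higher, beside 18.8%, and 3 lower, beside 19.9%.

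AT1G67865 had the largest rise named, with 12.26, 12.80 and 12.68 at day 21, against 7.25, 8.41 and 7.00 at day 11. That is a difference of 5.03 (SE 0.53, adjusted p = 4.87e-08), and it passed the mimic arrays, which read 9.28, 10.001 and 8.93. AT2G37900 rose by 2.84 (SE 0.31) to 7.08, 6.59 and 7.49 at day 21, and AT2G39210 by 2.80 (SE 0.33). CHI rose by 2.69 (SE 0.40, adjusted p = 7.35e-06), AT4G34400 by 2.53 (SE 0.40, adjusted p = 2.12e-05), CHX20 by 2.2 (SE 0.36) and AT3G14395 by 2.06 (SE 0.41). The 1 member that fell was AT2G43600, which read 4.59, 4.03 and 3.91 at day 21, against 6.49, 6.25 and 6.08 at day 11 (-2.09, SE 0.34, adjusted p = 2.94e-05). FD differed by 0.62 (adjusted p = 0.0564) and AGL42 by 0.32 (adjusted p = 0.468), which did not pass.

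In FRI;FLC, 8 of the 55 members had a mean at or above the mimic mean at day 21, 2 at day 14 and 0 at day 11. The medians of the 55 in that genotype were 4.09, 4.32 and 5.10 at days 11, 14 and 21. In FRI;flc-3, 2 members reached the mimic mean at day 9 and 9 at day 11, and the medians were 3.88, 3.97, 4.68 and 4.66 at days 4, 6, 9 and 11. In all, 14 of the 55 reached the mimic mean in an apex group of either genotype, and in the other 41 the mimic was the highest of the 11 apex groups. The mimic values chose the members, and the rule had already set the mimic above FRI;FLC of days 4, 6 and 9. These counts are thus a description, with no test.

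In FRI;flc-3 apices, 23 members were higher at day 11 than at day 4, beside 31.2% of all probe sets, and 8 were lower, beside 28.8%. The share higher, 23 of 71, is near that of all probe sets. Named rises were AT1G67865 with 6.47 (SE 0.53), AT4G34400 with 5.43 (SE 0.40, adjusted p = 4.94e-11), ATSBT5.2 with 3.47 (SE 0.33), AGL42 with 3.22 (SE 0.32), AT3G06160 with 3.17 (SE 0.30) and FD with 2.62 (SE 0.26). QQS was lower at day 11, with 3.36, 4.56 and 2.98, against 4.52, 6.90 and 5.71 at day 4 (-2.08, SE 0.72, adjusted p = 0.0153). AT2G39210 was lower too (-1.49, SE 0.33), although it was called higher with age in the other genotype. Without mimic replicate 2 and day 14 replicate 3, 24 members were higher, beside 31.5% of all probe sets, and 21 were lower, beside 29.0%. The count of members called lower thus depends on that pair of arrays, and without it the share lower is also near that of all probe sets. Of 6 measured genes of floral transition and flower identity, 4 rose over the same interval, AGL42 and FD with AGL24 (4.71) and GI (1.41), and AGL19 (0.43) and AGL71 (-0.02) did not pass.

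The trend of signal with gene length also moved with age. In log2 units per 10-fold length, relative to the apex mean, it was 0.02 to 0.70 on the mimic arrays. In FRI;FLC it was -1.08 to -0.61 at day 4, 0.26 to 0.67 at day 9, 0.76 to 0.95 at day 11 and -0.15 to -0.08 at day 21. At day 6 its arrays had -1.38 and 0.05. In FRI;flc-3 it was -1.16 to -0.97 at day 4 and 0.70 to 0.79 at day 11. Of the 71 members 28 have a gene length, too few for a check over the members, and its part in the results was not tested.

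**Figure D2:**
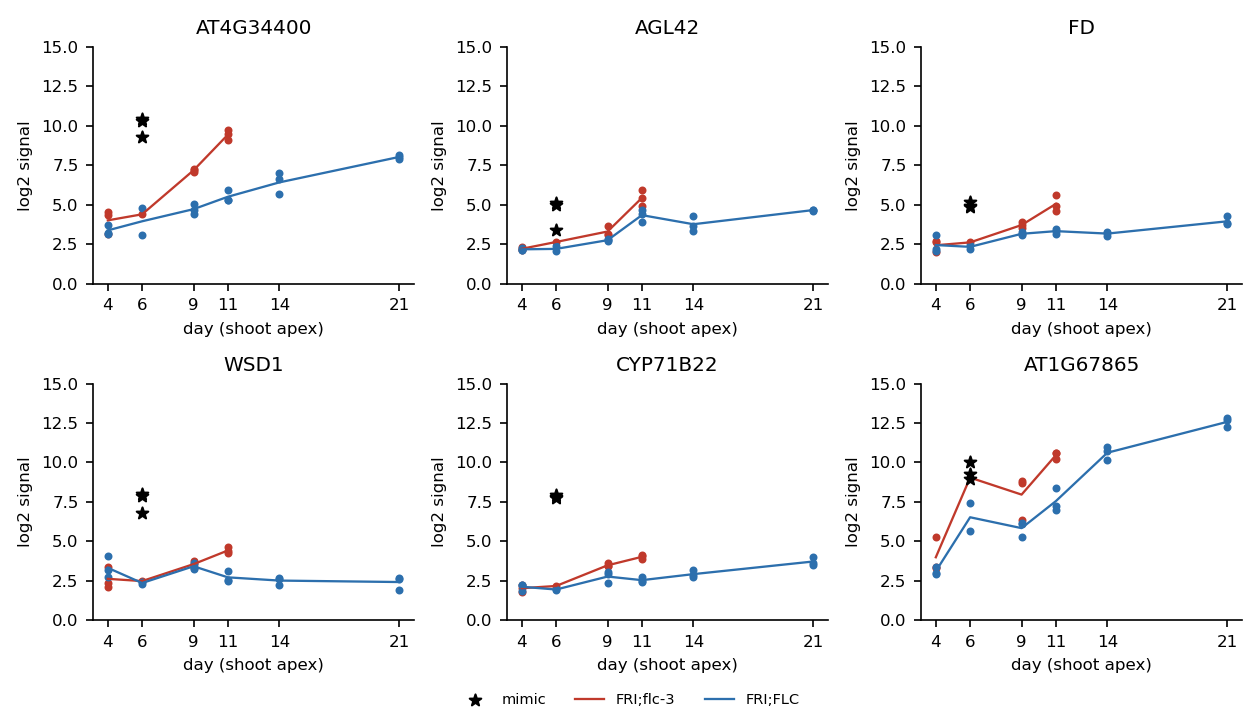
Log2 signal (y axis) by day (x axis) in shoot apices for 6 members, with a point or star per array and lines through the group means of FRI;flc-3 (red) and FRI;FLC (blue). Stars mark the 3 mimic arrays of day 6, which for AT1G67865 lie below the 3 arrays of day 21 (12.26, 12.80 and 12.68) and for WSD1 and CYP71B22 lie above all other apex arrays.

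At day 11, where neither genotype had been used by the rule, few probe sets differed between FRI;flc-3 and FRI;FLC apices. Of the members, 15 were higher in FRI;flc-3, beside 0.321% of all probe sets, and 1 was lower, beside 0.264%. All 15 were among the 55, but the 16 other members could hardly be called in this fit either. The median difference was 0.42 over the members and 0.57 over the 55. These arrays are also part of the age comparisons above.

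AT4G34400 read 9.10, 9.51 and 9.72 in FRI;flc-3, against 5.29, 5.32 and 5.92 in FRI;FLC, a difference of 3.93 (SE 0.40, adjusted p = 3.39e-07). AT1G67865 was higher by 2.91 (SE 0.53), 267460_at by 2.1 (SE 0.39), FD by 1.73 (SE 0.26, adjusted p = 0.000273), AT3G06160 by 1.71 (SE 0.30), WSD1 by 1.70 (SE 0.33), UGT84A3 by 1.57 (SE 0.26) and CYP71B22 by 1.48 (SE 0.20). The groups of AT4G34400 and FD did not overlap. AT2G43600 was the member that was lower (-1.92, SE 0.34, adjusted p = 0.00263). AGL42 differed by 1.09 (adjusted p = 0.224) and did not pass.

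Larger differences were those of 4 probe sets that the naming table does not list, chosen after their values were seen. 267509_at read 8.83, 8.81 and 8.38 in FRI;flc-3, against 3.23, 3.63 and 3.23 in FRI;FLC (5.31, SE 0.27, adjusted p = 2.47e-13). 261375_at was higher by 4.89 (SE 0.36), 247553_at by 4.40 (SE 0.32) and 249012_at by 4.097 (SE 0.39). The groups did not overlap, and the 4 passed with each replicate number left out.

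Their values by age follow. 249012_at read 7.54, 8.01 and 7.66 in the mimic and rose with age in both genotypes, by 4.98 (SE 0.39) in FRI;flc-3 between days 4 and 11 and by 2.53 (SE 0.39) in FRI;FLC between days 11 and 21. Over the same intervals 261375_at, which read 7.66, 7.17 and 7.63 in the mimic, rose by 3.37 (SE 0.36) and differed by -0.13 (adjusted p = 0.818). 267509_at read 6.86, 6.56 and 7.70 in the mimic, which lies within its range of 6.53 to 8.83 over all FRI;flc-3 apex arrays and above its range of 2.41 to 4.86 over those of FRI;FLC. 247553_at read 5.38, 5.79 and 5.89 in the mimic. Between days 4 and 11 of FRI;flc-3 it rose by 2.68 (SE 0.32), to 7.71, 7.87 and 8.18.

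With 1 replicate number left out in turn, 6 to 11 members were higher. No share of all probe sets is given for these fits, so that count is not set against a background. AT4G34400 passed each time. AT2G43600, CYP71B22, WSD1, AT1G67865, AT3G06160, FD, UGT84A3 and 267460_at each failed to pass in at least 1 of the 3 fits, where their adjusted p lay between 0.0508 and 0.335.

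**Figure D3:**
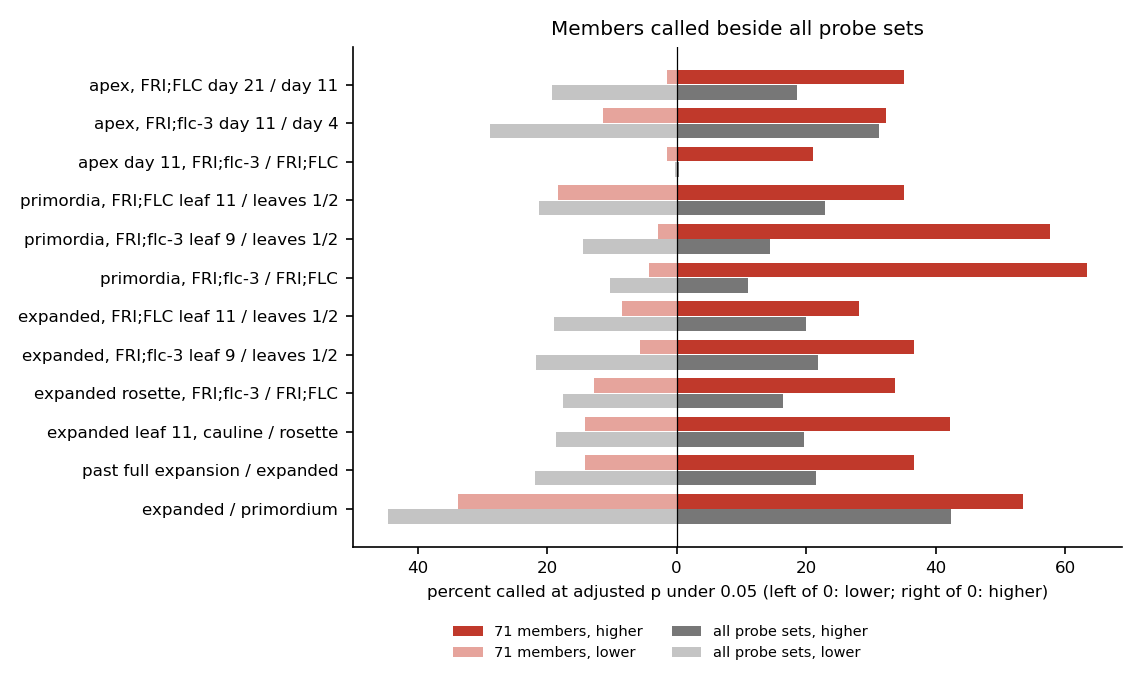
Percent of the 71 members (red) and of all 19324 probe sets (grey) called higher (right of 0, dark) or lower (left of 0, light) at an adjusted p under 0.05 in the 12 comparisons (rows). The members' shares higher stand farthest from those of all probe sets for FRI;flc-3 against FRI;FLC in primordia (45 of 71, beside 11.0%) and for leaf 9 against leaves 1/2 in FRI;flc-3 primordia (41 of 71, beside 14.5%).

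Leaf position was followed first in primordia of 1 mm, none of which the rule had used. In FRI;flc-3, 41 members were higher in leaf 9 than in leaves 1/2, beside 14.5% of all probe sets, and 2 were lower, also beside 14.5%. The median difference was 0.78 over the members and 1.38 over the 55, and all 41 were among the 55. The median of the 55 was 4.00, 4.99, 5.38, 5.85, 6.90 and 7.37 at leaves 1/2, 3, 5, 7, 9 and 11 of this genotype. In FRI;FLC it was 3.68, 4.19, 4.78, 4.49, 4.43 and 4.63 at the same positions.

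The largest of these rises among members with a symbol was that of AGL42, which in FRI;flc-3 read 2.08, 2.12 and 1.89 in leaves 1/2, 4.52, 4.24 and 4.35 in leaf 7, 9.48, 9.05 and 9.32 in leaf 9, and 10.27, 10.30 and 10.10 in leaf 11. The difference between leaf 9 and leaves 1/2 was 7.26 (SE 0.16, adjusted p = 9.31e-30), and these late primordia lay far above the 3 mimic apex arrays. AT4G34400 read 9.13, 8.57 and 9.00 in leaf 9, against 2.42, 2.19 and 2.41 in leaves 1/2 (6.55, SE 0.23). AT3G14395 read 9.30, 8.61 and 8.58 in leaf 9, against 2.31, 2.67 and 2.38 in leaves 1/2 (6.38, SE 0.21). In none of the 3 did the groups overlap.

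CYP71B22 (6.09, SE 0.26) and AT1G67865 (5.39, SE 0.21) rose by similar amounts. 267460_at rose by 3.68 (SE 0.13) and WSD1 by 3.00 (SE 0.18). AT2G43590 rose by 2.24 (SE 0.25), UGT84A3 by 1.86 (SE 0.26), FD by 1.38 (SE 0.20) and AT3G50170 by 1.02 (SE 0.17). AT3G27980 fell, with 3.33, 2.88 and 3.33 in leaf 9, against 5.25, 5.02 and 6.05 in leaves 1/2 (-2.26, SE 0.25, adjusted p = 3.24e-09). CHX20 differed by -0.18 (adjusted p = 0.512) and QQS by 0.24 (adjusted p = 0.637), which did not pass. Of the 23 members that rose with age in apices of this genotype, 20 were among these 41 (87.0% of the 23 and 48.8% of the 41). These comparisons share no array. All 23 were among the 55, of which the 41 make up 74.5%, so a large overlap was to be expected. No share of all probe sets is given for it.

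Probe sets without a gene rose along the same positions. 247553_at read 11.28, 11.03 and 10.91 in leaf 9, against 5.48, 5.30 and 5.29 in leaves 1/2 (5.72, SE 0.17). 249012_at read 6.75, 6.33 and 7.1 in leaf 9, against 2.00, 1.69 and 2.17 in leaves 1/2 (4.78, SE 0.18). In both the groups were far apart, while in 267509_at, which was already at 8.33, 8.05 and 8.04 in leaves 1/2, the rise was 1.60 (SE 0.18). A further pair, 253309_at and 254203_at, was chosen after its values were seen. 253309_at read 5.70, 5.71 and 5.96 in mimic apices and at most 3.25 on the FRI;FLC apex arrays of days 4, 6, 9, 11 and 21. In FRI;flc-3 primordia it read 6.27, 5.36 and 5.45 in leaf 9 and 7.08, 7.00 and 8.04 in leaf 11, against 1.87, 1.73 and 2.06 in leaves 1/2 (leaf 9 against leaves 1/2, 3.81, SE 0.20). The leaf 9 values thus spanned the mimic apex values, whereas in the other genotype leaf 11 read 2.03, 2.02 and 2.04. 254203_at read 5.34, 5.51 and 5.91 in mimic apices. It read 6.72, 6.84 and 7.15 in leaf 9 of FRI;flc-3, against 3.02, 3.24 and 3.21 in leaves 1/2 (3.74, SE 0.19).

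In FRI;FLC, 25 members were higher in leaf 11 than in leaves 1/2, beside 23.0% of all probe sets, and 13 were lower, beside 21.2%. The median difference was 0.03 over the members and 0.38 over the 55. CYP71B22 rose by 4.23 (SE 0.26), AT3G14395 by 2.66 (SE 0.21), AT4G34400 by 2.47 (SE 0.23), AGL42 by 1.97 (SE 0.16), WSD1 by 1.95 (SE 0.18) and AT3G50170 by 1.80 (SE 0.17). CHX20 fell, with 6.79, 6.67 and 6.6 in leaves 1/2, 5.43, 5.72 and 5.41 in leaf 7, and 4.40, 3.94 and 4.29 in leaf 11 (-2.48, SE 0.18, adjusted p = 1.13e-13). UGT84A3 (-1.27, SE 0.26) and AT3G27980 (-2.53, SE 0.25) fell as well. UGT84A3 thus rose with position in one genotype and fell in the other.

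The difference between genotypes was tested itself, as the change between leaf 9 and leaves 1/2 in FRI;flc-3 minus that in FRI;FLC. It was above 0 for 34 of the 71 members and below 0 for 0, by limma at an adjusted p under 0.05, while 2.79% of all probe sets were called in either direction. For AGL42 it was 6.59 (SE 0.22, adjusted p = 6.29e-23), for AT4G34400 4.58 (SE 0.32), for AT3G14395 4.41 (SE 0.30) and for AT1G67865 3.2 (SE 0.30).

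The same test gave 2.45 for UGT84A3 and 1.62 for WSD1. In FRI;flc-3, UGT84A3 read 4.8, 5.26 and 4.70 in leaves 1/2 and 7.35, 7.14 and 7.62 in leaf 11. WSD1 read 10.24, 9.95 and 10.02 in leaf 9 and 10.23, 10.69 and 10.35 in leaf 11 of that genotype. In FRI;FLC, UGT84A3 read 4.17, 4.63 and 4.51 in leaves 1/2 and 3.14, 3.05 and 3.32 in leaf 11, so at leaf 11 the groups lay more than 3 log2 units apart. WSD1 read 6.71, 7.03 and 7.02 in leaf 9 and 7.70, 6.95 and 7.83 in leaf 11 there, without overlap between the groups. At leaf 11, where the expanded leaf is cauline in one genotype and rosette in the other, organ type and genotype cannot be told apart.

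**Figure D4:**
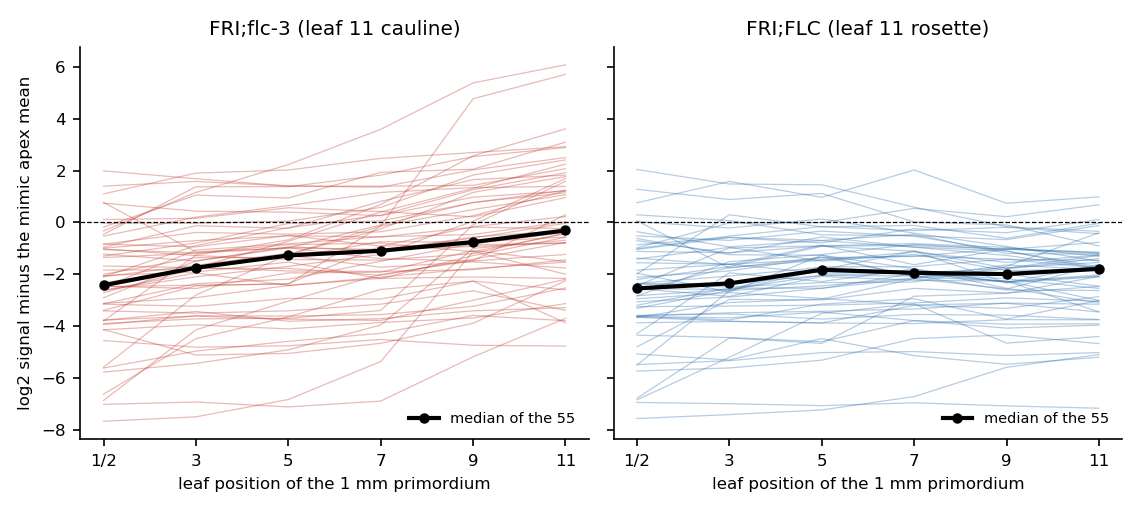
Log2 signal in primordia minus the mimic apex mean (y axis) by leaf position (x axis) for the 55 members with all mimic arrays above those of neighbouring ages, a line per member and the median in black, in FRI;flc-3 (left) and FRI;FLC (right). The median level at leaf 11 is 7.37 on the left and 4.63 on the right, beside a mimic median of 6.99.

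Averaged over the 6 positions, 45 members were higher in FRI;flc-3 than in FRI;FLC primordia, beside 11.0% of all probe sets, and 3 were lower, beside 10.3%. Leaf 11 enters this average, so organ type enters it too. Over leaves 1/2 to 9 alone, an alternative chosen after seeing the data, 38 members were higher, beside 5.38%, and 2 were lower, beside 6.34%. Over all 6 positions, leaf 11 among them, the median difference was 0.41 over the members and 0.74 over the 55. All 15 members that were higher by genotype in apices of day 11 were among the 45 (100% of the 15 and 33.3% of the 45), with no array in common. All 15 were among the 55, of which 44 were higher in these primordia, so a large overlap was partly built in. No share of all probe sets is given for this overlap. Without leaf 11, FD (0.27, adjusted p = 0.0512), CHX20 (0.21, adjusted p = 0.0871), AT2G37900 (0.11, adjusted p = 0.251) and AT3G50170 (-0.10, adjusted p = 0.473) no longer passed, and AT2G43590 was at -0.054 (adjusted p = 0.825), against 0.31 over all positions. AT1G67865 (1.17) and 249012_at (0.88) still passed without leaf 11, at lower values than over all positions. The highest of the 12 primordium groups was one of FRI;flc-3 for 48 of the 55 members, leaf 11 for 41 of them and leaf 9 for 5.

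AT3G14395 was higher by 2.57 (SE 0.09), AGL42 by 2.44 (SE 0.06), WSD1 by 2.03 (SE 0.07), AT1G67865 by 1.76 (SE 0.09), UGT84A3 by 1.63 (SE 0.11) and AT4G34400 by 1.52 (SE 0.09). WSD1 differed in the first leaves too, with 7.24, 6.81 and 7.16 in FRI;flc-3 and 5.44, 5.57 and 5.62 in FRI;FLC in leaves 1/2. 267509_at read 8.04 to 10.18 over FRI;flc-3 arrays and 2.01 to 4.68 over the FRI;FLC arrays (5.27, SE 0.07). 249012_at, 261375_at and 247553_at were higher as well, by 1.4 (SE 0.07), 1.96 (SE 0.08) and 3.51 (SE 0.07). Lower were AT2G39210 (-0.44, SE 0.07), AT3G50170 (-0.21, SE 0.07) and AT2G43600 (-0.49, SE 0.09). Among the 6 measured genes of floral transition, AGL42, FD (0.39), AGL24 (0.47) and AGL71 (0.19) were higher, 4 in all, and AGL19 was lower (-1.10). Of the families, 6 of 21 measured MADS-box factors were higher and 2 lower, 5 of 17 cytochromes P450 higher and 3 lower, and 4 of 43 UDP-glycosyltransferases higher and 14 lower. SHN3, the other measured wax gene, was higher by 0.33.

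Position was tested again in fully expanded leaves. In FRI;flc-3, 26 members were higher in leaf 9 than in leaves 1/2, beside 21.8% of all probe sets, and 4 were lower, beside 21.7%. Experiment 1 alone gave 22 higher and 3 lower, beside 8.95% and 10.4%, and experiment 2 alone gave 28 and 5, beside 22.2% and 21.8%. In FRI;FLC, 20 were higher in leaf 11 than in leaves 1/2, beside 20.0%, and 6 were lower, beside 18.9%. For this comparison experiment 1 alone gave 15 higher and 7 lower, beside 12.1% and 13.7%, and experiment 2 alone gave 20 and 7, beside 22.2% and 21.6%. The median differences over the members were 0.29 and 0.10 in these 2 comparisons. One array of these leaves, replicate 3 of leaves 1/2 of FRI;flc-3 in experiment 1, had 68 probe sets at least 3 log2 units above both others of its group, 2 of them members. Without replicate 3 the counts in that genotype were 26 higher and 4 lower, with no share of all probe sets given for that fit.

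AGL42 averaged 9.06 ± 0.28 and 8.77 ± 0.08 in expanded leaf 9 of FRI;flc-3, in experiments 1 and 2, against 2.31 ± 0.21 and 2.14 ± 0.10 in leaves 1/2 (SD, n = 3 each). The difference was 6.69 (SE 0.18, adjusted p = 2.9e-41), and the genotypes differed in it by 5.65 (SE 0.26). AT4G34400, by contrast, averaged at most 3.12 in any group of expanded leaves, and its difference in those leaves was 0.35 (SE 0.13, adjusted p = 0.026), which did not pass in either experiment alone (adjusted p = 0.122 and 0.201). CYP71B22 and FD rose in both genotypes. In FRI;flc-3 the rises were 2.76 (SE 0.28) for CYP71B22 and 1.62 (SE 0.21) for FD. In FRI;FLC, between leaves 1/2 and leaf 11, they were 3.07 (SE 0.28) for CYP71B22 and 0.79 (SE 0.21) for FD.

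AT3G14395, which rose with position in primordia, was lower in late expanded leaves. In FRI;flc-3 it averaged 3.84 ± 1.90 and 4.27 ± 1.04 in expanded leaf 9, against 8.74 ± 0.58 and 6.79 ± 0.45 in leaves 1/2 (-3.71, SE 0.53, adjusted p = 2.52e-08). WSD1 did not pass in the same comparison (0.75, adjusted p = 0.124), in which the experiments differed in sign, with -0.99 (adjusted p = 0.231) in experiment 1 and 2.48 (adjusted p = 0.000232) in experiment 2. In FRI;FLC, leaf 11 was lower than leaves 1/2 for AT3G14395 (-4.01, SE 0.53), by -5.68 in experiment 1 and -2.34 in experiment 2, which both passed. WSD1 was lower there too (-1.47, SE 0.40), but only in experiment 1 (-2.80, adjusted p = 8.49e-05) and not in experiment 2 (-0.13, adjusted p = 0.873). Of the 6 measured floral transition genes, 5 rose between leaves 1/2 and leaf 9 of FRI;flc-3, including AGL24 (4.23) and AGL19 (1.51).

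Over rosette leaves 1/2 to 9, 24 members were higher in FRI;flc-3 than in FRI;FLC, beside 16.5% of all probe sets, and 9 were lower, beside 17.5%. AGL42 (1.54, SE 0.08), WSD1 (1.52, SE 0.18), ATSBT5.2 (1.28, SE 0.24), UGT84A3 (0.86, SE 0.12) and CHX20 (0.66, SE 0.07) were higher. CHI was lower (-1.46, SE 0.26). The largest difference was that of 267509_at (3.08, SE 0.09). Experiment 1 alone gave 19 higher and 10 lower, beside 13.6% and 13.9% of all probe sets, and experiment 2 alone gave 17 and 6, beside 7.44% and 8.09%. CYP71B22 was higher by 0.36 (SE 0.12) over both experiments, by 0.88 in experiment 1 alone, and differed by -0.17 (adjusted p = 0.59) in experiment 2 alone. In experiment 1 the leaves of positions 3 to 9 were 2 to 3 days younger in FRI;flc-3, so harvest day and genotype cannot be told apart there, as in leaf 9 of experiment 2, which was 1 day younger.

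**Figure D5:**
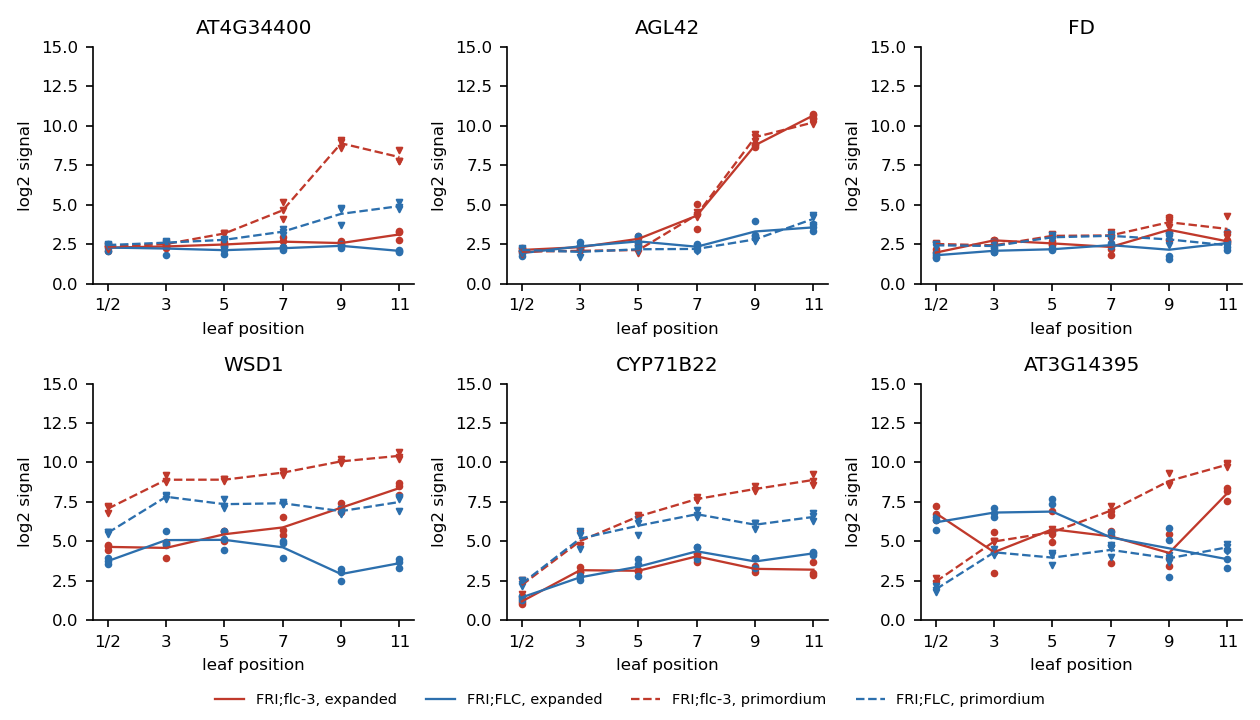
Log2 signal (y axis) by leaf position (x axis) for 6 members in FRI;flc-3 (red) and FRI;FLC (blue), in expanded leaves of experiment 2 (solid lines, dots) and in 1 mm primordia (dashed lines, triangles), with a point per array and lines through the means. AGL42 rises in FRI;flc-3 in both organs, whereas AT4G34400 rises in primordia and stays at or below a mean of 3.12 in expanded leaves.

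In leaf 11, the cauline leaf of FRI;flc-3 was set against the rosette leaf of FRI;FLC, where organ type, genotype and harvest day cannot be told apart. Of the members, 30 were higher in the cauline leaf, beside 19.7% of all probe sets, and 10 were lower, beside 18.6%. Experiment 1 alone gave 26 higher and 8 lower, beside 24.5% and 23.3%, and experiment 2 alone gave 30 and 6, beside 13.5% and 15.9%. AGL42 averaged 10.79 ± 0.31 and 10.67 ± 0.12 in the cauline leaf, against 4.1 ± 0.63 and 3.57 ± 0.21 in the rosette leaf (6.89, SE 0.18). AT3G14395 was higher by 5.80 (SE 0.53) and WSD1 by 5.66 (SE 0.40). AT3G06160 was higher by 2.05 (SE 0.19), by 2.98 in experiment 1 and 1.12 in experiment 2. ATSBT5.2 (1.91, SE 0.54) and UGT84A3 (1.61, SE 0.27) were higher over both experiments, but in experiment 1 alone ATSBT5.2 differed by 1.096 (adjusted p = 0.233) and UGT84A3 by 0.53 (adjusted p = 0.249), and in experiment 2 alone by 2.73 and 2.69. Among probe sets without a gene, 247553_at was higher by 5.68 (SE 0.23), 267509_at by 5.00 (SE 0.19) and 261375_at by 2.49 (SE 0.22), while 249012_at differed by 0.04 (adjusted p = 0.758) and did not pass. CYP71B22 was lower (-1.53, SE 0.28), also in each experiment. AT2G39210 (-1.89, SE 0.30) and 267460_at (-0.69, SE 0.15) were lower over both experiments and passed in 1 of them each. AT2G39210 was at -3.19 in experiment 1 and -0.58 (adjusted p = 0.319) in experiment 2, and 267460_at at -0.21 (adjusted p = 0.412) in experiment 1 and -1.17 in experiment 2. FD (-0.39, adjusted p = 0.128) did not pass over both, though it was lower in experiment 1 alone (-0.90, adjusted p = 0.00912). Of the 55, the cauline leaf was the highest group of expanded leaves for 20 in experiment 1 and 29 in experiment 2, and for 16 in both. M17, one of the 16 members that were high on 1 mimic array, was called with means of 2.59 and 2.51 in the cauline leaf, against 2.25 and 2.23 in the rosette leaf, and did not pass in experiment 2 alone (adjusted p = 0.0752).

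At the stage after expansion was over, 26 members were higher in leaves 3, 5 and 7 than in the same leaves when fully expanded, beside 21.5% of all probe sets, and 10 were lower, beside 21.9%. Both genotypes entered this comparison, which used experiment 2. CHI was higher by 1.75 (SE 0.34), AT2G37900 by 0.77 (SE 0.18), UGT84A3 by 0.69 (SE 0.16) and WSD1 by 0.59 (SE 0.23). AT3G06160 (-1.004, SE 0.11), 267460_at (-0.80, SE 0.09) and CYP71B22 (-0.43, SE 0.16) were lower.

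Between stages of the same leaves, 38 members were higher in fully expanded leaves than in primordia, beside 42.4% of all probe sets, and 24 were lower, beside 44.6%. This comparison took leaves 3, 5, 7 and 9 of both genotypes in experiment 1. The neighbours on chromosome 2 differed in opposite directions. CHI was higher in expanded leaves by 6.6 (SE 0.29) and AT2G43590 was lower (-5.03, SE 0.13, adjusted p = 2.47e-40). AT1G67865 averaged 12.59 or more in every expanded leaf group, and was higher than in primordia by 6.85 (SE 0.06). QQS (4.63, SE 0.11), AT2G39210 (4.47, SE 0.12), UGT84A3 (3.83, SE 0.12) and CHX20 (3.17, SE 0.08) were higher in expanded leaves too. AT3G06160 (-4.11, SE 0.09), CYP71B22 (-2.59, SE 0.15), WSD1 (-1.91, SE 0.18) and AT4G34400 (-1.67, SE 0.08) were lower. Of the 55, 27 were higher and 23 lower in expanded leaves.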

How the data were processed

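Gene expression was measured on 1 array per pool of organs, 156 arrays in 53 groups. The deposited values are log2 signals per probe set, already normalized across arrays by the authors. GCRMA and MAS5 are named per the submitters' processing notes. No source used here gives the annotation or filters. No value was rescaled. limma 3.58.1 (R 4.3.3) fitted a linear model with 1 coefficient per group to 30 apex, 36 primordium, 90 leaf or 72 stage arrays. Two-sided p-values came from eBayes with a trend and were adjusted over the 19324 probe sets (Benjamini-Hochberg). The FRI;flc-3 group with 1 array and the FRI;FLC group with 2 at day 6 were assumed to vary like the others. The procedure was tested on simulated data. Signals hold no counts, so the number of arrays limits the precision.

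Probe sets were named from a table that listed 11325 of them, 10918 with 1 gene, matched to TAIR10.1 gene symbols. Of the sequence tables looked for, none was used here. The members, the gene lists and the tests were chosen with earlier results of these data known. Named were the 24 members with a gene and the largest smallest difference, members on a gene list, the 5 largest differences in each direction per comparison among members with a symbol, the members nearest the threshold and 3 probe sets without a gene. Others are marked as chosen after their values were seen. The alternatives were quantile normalization, a filter on dim probe sets, no trend, array weights, only the groups compared, a replicate block, leaving out each replicate, other thresholds and, chosen after seeing the data, leaving out the pair of apex arrays that stood apart, leaving out the day 6 arrays, each experiment alone, primordia without leaf 11, and the 55 members alone. No columns were left without a sample.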

Additional observations from a re-analysis of the deposited data

Results flagged for a closer look

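The results below were marked because a test of the difference between genotypes passed, that is, the change in FRI;flc-3 minus the change in FRI;FLC (limma, adjusted over all probe sets). In primordia, for leaf 9 against leaves 1/2, the difference was 6.59 for AGL42, 4.58 for AT4G34400, 4.41 for AT3G14395, 3.2 for AT1G67865, 5.07 for 247553_at, 3.38 for 249012_at, 3.05 for 261375_at, 2.60 for 267460_at, 2.45 for UGT84A3, 2.35 for CYP71B22 and 2.26 for AT2G43590. It was 1.97 for 246380_at, 1.74 for CHX20, 1.68 for 266139_at, 1.62 for WSD1, 1.19 for AT3G06160, 1.02 for ATSBT5.2, 1.01 for FD and 1.00 for AT2G37900. In expanded leaves, for the same positions, it was 5.65 for AGL42, 2.72 for 247553_at, 2.42 for WSD1, 1.34 for UGT84A3 and 1.08 for FD; over all members 8 were more positive in FRI;flc-3 and 2 more negative, beside 6.52% of all probe sets. For leaves past full expansion against expanded leaves it was 2.55 for 266139_at, -0.64 for 267460_at, -1.13 for AT2G43590, -0.97 for 261375_at and -0.81 for AT3G06160; 3 members were more positive and 8 more negative, beside 7.00% of all probe sets.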

How the results depend on the processing

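A threshold of 1 or 2 on the log2 scale gave 147 or 38 members. Restricting the tests to probe sets above the median signal left 21 members. The counts higher and lower were then 12 and 0 for FRI;FLC apices by age, 10 and 3 for FRI;flc-3 apices by age, and 6 and 0 for day 11 by genotype. For primordia they were 10 and 8 by position in FRI;FLC, 13 and 1 by position in FRI;flc-3, and 18 and 0 by genotype. For expanded leaves they were 8 and 2, 11 and 1, and 13 and 4, and for the cauline leaf 10 and 3. Past expansion had 6 higher, and expanded against primordium had 16 and 4. Shares of all probe sets are not given under this filter. They are also not given without trend, with array weights, with only the groups compared or without the day 6 arrays. Such counts are thus not set against a background. Members lower with age in FRI;FLC apices were 1 by the main test, 3 without trend, 4 with array weights, 5 with only the groups compared, and 3 without the pair of arrays that stood apart or without the day 6 arrays. In FRI;flc-3 they were 8, 15 with only the groups compared and 21 without that pair. Cauline leaves had 6 lower in experiment 2 alone, and among the 55 members 1 was lower by position in FRI;flc-3 primordia.

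Leaving out 1 replicate number at a time gave 1 to 2 members lower with age in FRI;FLC apices, 5 to 6 in FRI;flc-3, 6 to 11 higher and 0 to 1 lower for day 11 by genotype, 2 to 4 lower by position in expanded FRI;flc-3 leaves and 6 to 9 lower past expansion. CYP71B22 turned to -0.17 for genotype in rosette leaves of experiment 2 alone. AT2G43590 turned to -0.054 for genotype in primordia without leaf 11. The fit with the replicate number as a block kept all 24 counts within 1.5 times, for instance 27 higher with age in FRI;FLC apices. It changed no named call. Deviations from the group means correlated weakly between same-numbered apex arrays, with a median of 0.09 and a range of -0.69 to 0.43. Between apex arrays of other numbers the median was -0.04. The cause of these changes was not tested. Shares of all probe sets are not given for counts with a replicate number left out or fitted as a block. Dim probe sets, pools of 2 or 1 array at day 6 and 42 members without a gene limit what can be said.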
